A study of Oncorhynchus mykiss with 18 samples.

Results

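The immune genes themis and cd209 of rainbow trout (Oncorhynchus mykiss) were followed across 5 concentrations of 17α-ethinylestradiol (EE2), a synthetic estrogen used in contraceptives. They are 2 of the 61973 genes and single transcripts counted, and both were among the 46999 with enough counts to be tested. Each was found through the RefSeq accession of its transcript. The pair was chosen by its measured CPM (read counts scaled to the size of the library), which ran in opposite directions over the concentrations, so those levels are given as a description, with no test.

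THEMIS is a cytosolic protein of the T cell lineage. In the mouse it binds the adaptor GRB2, tunes signalling from the T cell receptor, and is needed while thymocytes are selected in the thymus. CD209, also called DC-SIGN in humans, is a C-type lectin receptor on the surface of dendritic cells and some macrophages. It binds mannose- and fucose-bearing glycans of microbes and of host proteins. The cells that express either gene in a trout alevin were not identified here, because the RNA came from whole animals.

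The study asked which transcripts respond to EE2 over a short exposure of newly hatched fish. Alevins, the yolk-sac stage, were kept at 14 °C in flowing water from hatch for 96 h and collected at 4 days post-hatch. All 6 groups received 0.01% DMSO, which the solvent group received alone. The exposed groups had measured EE2 concentrations of 55.1 ng/L at the top, then 16.3, 6.22 and 1.57, down to 1.13 ng/L. Each of the 6 groups held 3 replicates, A to C, and each replicate was a pool of 3 whole alevins. A pool averages its animals and all their tissues, and no label ties the pools to separate tanks. The p-values therefore reflect the spread between pools, which may leave out differences between tanks. The libraries were poly(A)-selected and directional, and held from 12658946 to 32851570 estimated counts, with 12658946 to 17076432 in solvent and 13013502 to 16122131 at 55.1 ng/L. The 1.13 ng/L libraries held 26160497 to 28166132, the 1.57 ng/L libraries 23837786 to 32851570 and the 16.3 ng/L libraries 19679734 to 29635724. All of these were deeper than every solvent library, so depth and exposure cannot be told apart in those comparisons with solvent. All 5 comparisons share the 3 solvent libraries. The exposure was visible in the transcript of the estrogen receptor esr1, which the hormone induces in fish. It was at 2.15 to 3.19 CPM in solvent, 5.93 to 8.11 CPM in the 1.13 ng/L pools and 35.4 to 42.9 CPM in the 55.1 ng/L pools, and it rose at every concentration (log2 fold change 1.23 at 1.13 ng/L, adjusted p = 0.0099, and 3.73 at 55.1 ng/L, adjusted p = 2.65e-06, edgeR's quasi-likelihood test). Without solvent replicate B the call at 1.13 ng/L was lost (adjusted p = 0.0565).

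The themis gene (gene ID 110522168) was read through 1 transcript, XM_021600319.1, of 2834 bases. In solvent its level was 13.3, 12.9 and 14.3 CPM in replicates A, B and C. At 1.13 ng/L it was 18.4, 15.4 and 17.5 CPM, and at 1.57 ng/L it was 13.7, 13.9 and 13.6 CPM. The lowest concentration thus stood above solvent with no overlap, while the 1.57 ng/L pools lay inside the solvent range. At 6.22 ng/L themis was at 11.9, 8.97 and 6.19 CPM. At 16.3 ng/L it was at 8.63, 7.04 and 5.55 CPM, and at 55.1 ng/L at 3.94, 3.03 and 4.04 CPM. Every pool at the 3 higher concentrations was below every solvent pool. The 6.22 and 16.3 ng/L pools overlapped each other, and the 55.1 ng/L pools lay below all others.

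As group means, themis was at 13.5 ± 0.721 CPM in solvent and, in order of rising concentration, at 17.1 ± 1.56, 13.7 ± 0.126, 9.03 ± 2.86, 7.07 ± 1.54 and 3.67 ± 0.557 CPM (SD, n = 3 pools each). The log2 fold changes against solvent were 0.34 (SE 0.19), 0.02 (SE 0.19), -0.58 (SE 0.19), -0.93 (SE 0.19) and -1.88 (SE 0.21) from the lowest to the highest concentration. The level of themis was thus highest at the lowest concentration and not in solvent. The pools differed most at 6.22 ng/L, where the coefficient of variation was 31.7%, against 0.916% in the 1.57 ng/L group and 15.2% in the 55.1 ng/L group. In whole animals, fewer cells of a type and less RNA per cell cannot be told apart.

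**Figure D1:**
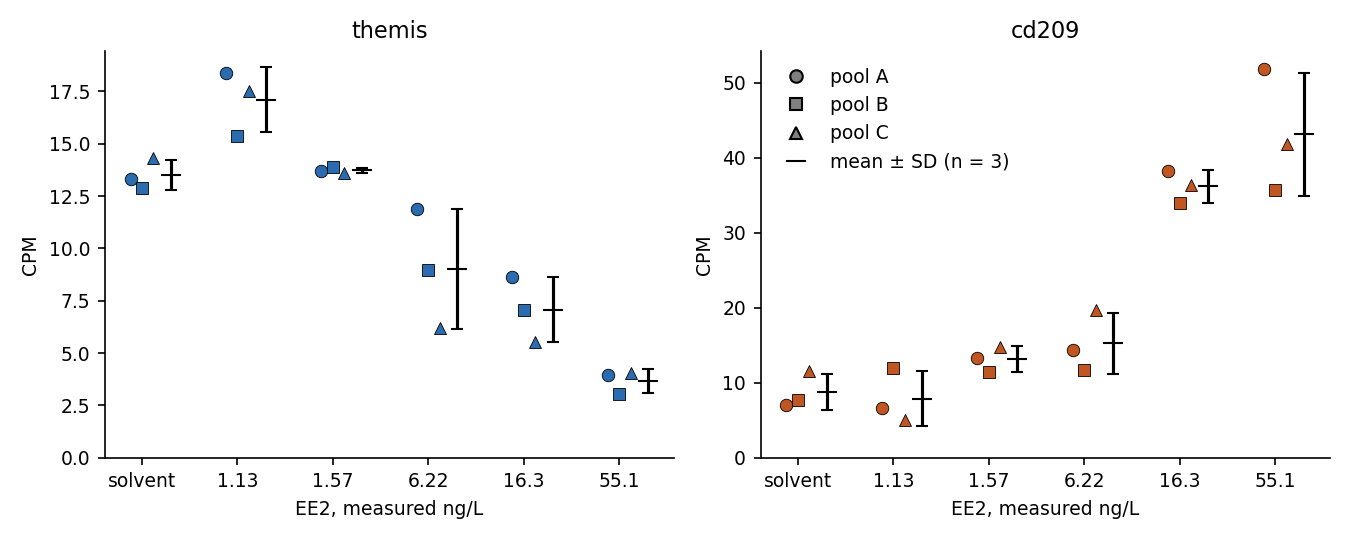
Level of themis and of cd209 in each of the 18 libraries, in CPM, by EE2 group, with 1 symbol for each pool and the group mean ± SD beside them (n = 3). The themis pools lie between 12.9 and 14.3 CPM in solvent and between 3.03 and 4.04 CPM at 55.1 ng/L, while the cd209 pools lie between 7.004 and 11.5 CPM and between 35.7 and 51.9 CPM.

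The cd209 gene (gene ID 100136662) was read through 1 transcript, NM_001124633.1, of 1602 bases. In solvent its level was 7.004, 7.74 and 11.5 CPM in replicates A, B and C. The 1.13 ng/L pools had 6.62, 11.98 and 4.98 CPM, the 1.57 ng/L pools 13.3, 11.4 and 14.8 CPM, and the 6.22 ng/L pools 14.4, 11.7 and 19.7 CPM. Each of these groups overlapped the next in rising order of mean, which was 1.13 ng/L, solvent, 1.57 ng/L and 6.22 ng/L. At 16.3 ng/L cd209 was at 38.3, 33.9 and 36.4 CPM, and at 55.1 ng/L at 51.9, 35.7 and 41.8 CPM. All 6 of these pools lay above the other 12, and the 2 groups overlapped each other.

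The group means of cd209 were 8.76 ± 2.43 CPM in solvent and then, in the same order, 7.86 ± 3.66, 13.2 ± 1.70, 15.3 ± 4.08, 36.2 ± 2.18 and 43.1 ± 8.18 CPM (SD, n = 3 pools each). The log2 fold changes against solvent were -0.16, 0.58, 0.79, 2.04 and 2.29 from the lowest to the highest concentration, each with an SE of 0.29. The value at 1.13 ng/L rested on replicate B, without which it was -0.60. Against solvent, the cd209 pools stood apart at 6.22 ng/L and above, and the themis pools at the same 3 concentrations and also, on the higher side, at 1.13 ng/L. Between neighbouring concentrations, the cd209 pools stood apart from 6.22 to 16.3 ng/L, and the themis pools from 1.13 to 1.57, from 1.57 to 6.22 and from 16.3 to 55.1 ng/L.

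Set against each other per kilobase of transcript, cd209 and themis were close in solvent, at 5.47 and 4.77 CPM per kilobase. At 55.1 ng/L they were at 26.9 and 1.30 CPM per kilobase. The ratio of cd209 to themis within a library had a median of 1.06 in solvent (range 0.930 to 1.43), 0.637 in the 1.13 ng/L group (0.502 to 1.38) and 1.72 in the 1.57 ng/L group (1.45 to 1.92). The median was 2.31 for 6.22 ng/L (range 2.13 to 5.64), 8.52 for 16.3 ng/L (7.84 to 11.6) and 20.8 for 55.1 ng/L (18.3 to 23.3). From 1.57 ng/L upward the ratio of every pool exceeded that of every pool at the concentration below. In replicate C at 6.22 ng/L themis was the lowest and cd209 the highest of their group, which gave the ratio of 5.64.

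**Figure D2:**
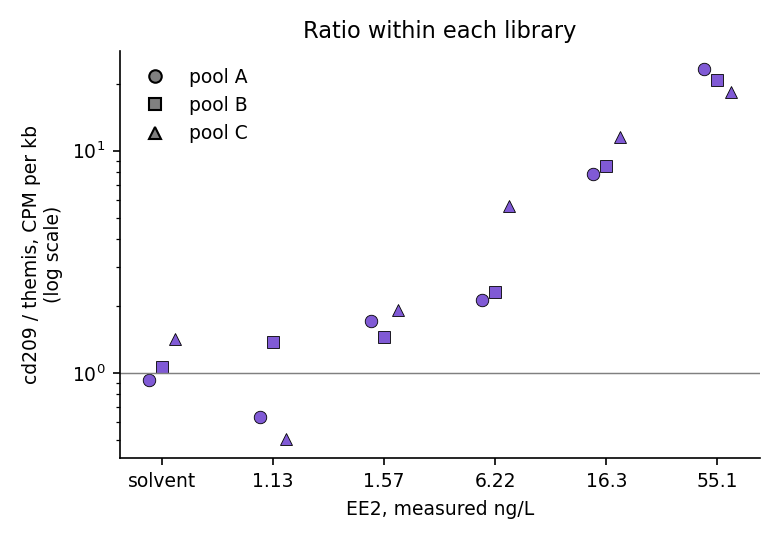
Ratio of cd209 to themis within each library, from CPM per kilobase of transcript, on a log axis, by EE2 group. Group medians are 1.06 for solvent, 0.637 for the lowest concentration and 20.8 for the highest.

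The authors' deposited table, fitted per transcript, gave nearly the same sizes. For themis the authors' deposited table lists log2 fold changes of 0.35, 0.02, -0.60, -0.95 and -1.89 in order of concentration. For cd209 the authors' deposited table lists -0.14, 0.59, 0.78, 2.03 and 2.29.

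Both values rest on estimated counts, which share out reads that fit more than 1 transcript. The themis estimates ran from 46.0 to 541.8 counts and were not whole numbers in 18 of 18 libraries, so some of its reads were shared with another transcript and its level is uncertain to that extent. The cd209 estimates ran from 101.8 to 861.9 counts and were whole to within 0.001 in 14 of 18 libraries. The deposited effective lengths were also computed in 2 ways. In solvent and at 55.1 ng/L the great majority of transcripts longer than 1500 bases lost the same number of bases within a library. In the other 4 groups the loss differed by transcript. The effective length of cd209 was 1407.2 to 1430.4 bases in the first kind of library and 1236.7 to 1289.7 in the second. The kind and the exposure cannot be told apart when solvent or 55.1 ng/L is compared with any of the 4 groups in between. They are not confounded between solvent and 55.1 ng/L, nor among those 4 groups, which include the step of cd209 from 6.22 to 16.3 ng/L.

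The genes beside each member on its chromosome were examined next, as the RefSeq table of the USDA_OmykA_1.1 assembly orders them, with 3 taken on each side after the files were seen. Of these 12 neighbours, 4 were tested, 3 had too few counts and 5 were not analysed here. Next to themis, leg1 moved at both ends of the concentration range. LEG1 is a secreted protein made mainly by the liver, and in zebrafish it is needed for the liver to grow. Its level was 86.5, 91.5 and 139 CPM in solvent, 334, 311 and 320 CPM in the 1.13 ng/L pools, and 25.5, 41.2 and 37.9 CPM in the 55.1 ng/L pools. All pools at 1.13 ng/L were above, and all at 55.1 ng/L below, the solvent pools. At the 3 concentrations in between, the means were 169 ± 31.2, 53.1 ± 18.3 and 59.6 ± 21.1 CPM, in rising order (SD, n = 3 pools each).

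The transcript of leg1 rose at 1.13 ng/L (log2 fold change 1.60, SE 0.29, adjusted p = 0.00475, edgeR) and fell at 55.1 ng/L (-1.60, SE 0.30, adjusted p = 0.0314, edgeR). The fold changes of 0.68, -0.99 and -0.83 in between did not pass (adjusted p = 0.194, 0.467 and 0.266, edgeR). The rise was called in 23 of 23 alternative fits. The call at 55.1 ng/L was lost without any single solvent replicate (adjusted p = 0.0547 without A, 0.0691 without B and 0.0933 without C), without any single 55.1 ng/L replicate (0.115 without A, 0.0768 without B and 0.0839 without C), without 1.13 ng/L replicate A (0.0522), and with only the solvent and 55.1 ng/L libraries (0.128). In the authors' deposited table leg1 has an adjusted p of 5.83e-07 for 1.13 ng/L, 0.0322 for 6.22 ng/L and 3.64e-06 for 55.1 ng/L.

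Other liver transcripts were read beside leg1. Of 11 hepatocyte genes tested, 3 rose at 1.13 ng/L, where 8.06% of all 46999 features were called. These were agt, the angiotensin precursor (1.04, adjusted p = 0.00929), tfa, the iron carrier transferrin (0.88, adjusted p = 0.0137), and apoba, an apolipoprotein B (0.92, adjusted p = 0.0168, edgeR). All 3 calls depended on single libraries: agt was lost without solvent A (0.056) or B (0.051), tfa without 1.13 ng/L A (0.0533) or B (0.0718) or solvent A (0.0739) or B (0.0683), and apoba without 1.13 ng/L A (0.0625) or B (0.0536) or solvent B (0.0833), or with the length trend removed (0.0505). At 55.1 ng/L edgeR called 0.372% of all features. There rbp4, the retinol carrier, rose (1.04, adjusted p = 0.0236) and ahsg2, a fetuin, fell (-1.57, adjusted p = 0.0225, edgeR). The ahsg2 call was lost without any single solvent or 55.1 ng/L library, and the rbp4 call without 55.1 ng/L B (0.109) or C (0.0676) or solvent A (0.103), B (0.136) or C (0.0532). DESeq2 called both genes there and also agt (0.97, adjusted p = 0.0838 in edgeR), beside 1.79% of all features. The summed level of the 11 genes was 657 to 958 CPM in solvent, 1009 to 1399 CPM in the 1.13 ng/L pools and 599 to 834 CPM in the 55.1 ng/L pools. The most abundant of the 11, tfa, made up much of these sums, with means of 470, 867 and 390 CPM in the same order. At 1.13 ng/L 8 of the 11 lay above 0 and 3 below, with a median of 0.15. At 55.1 ng/L 7 lay above 0 and 4 below, with a median of 0.18. The part of liver RNA in the leg1 values was not tested.

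Beside cd209 lies cd4-1, one of the trout genes for CD4, the co-receptor of helper T cells. It was at 2.67 ± 0.304 CPM in solvent and 4.32 ± 1.00 at 55.1 ng/L (SD, n = 3 pools each), a log2 fold change of 0.69 (SE 0.21) that did not pass (adjusted p = 0.227, edgeR). Its values at the other concentrations were 0.28, 0.04, -0.03 and 0.39, and none passed. LOC110518073, on the other side of cd209, was at 36.2 ± 3.74 CPM in solvent and 40.3 ± 2.52 at 55.1 ng/L, with adjusted p between 0.265 and 0.964 over the 5 concentrations. LOC110518094 was near the detection floor and did not pass either (adjusted p from 0.404 to 0.926, edgeR). The gene named cd209a had 24 counts in all 18 libraries together, with 0 in 5 of them, and was not tested.

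**Figure D3:**
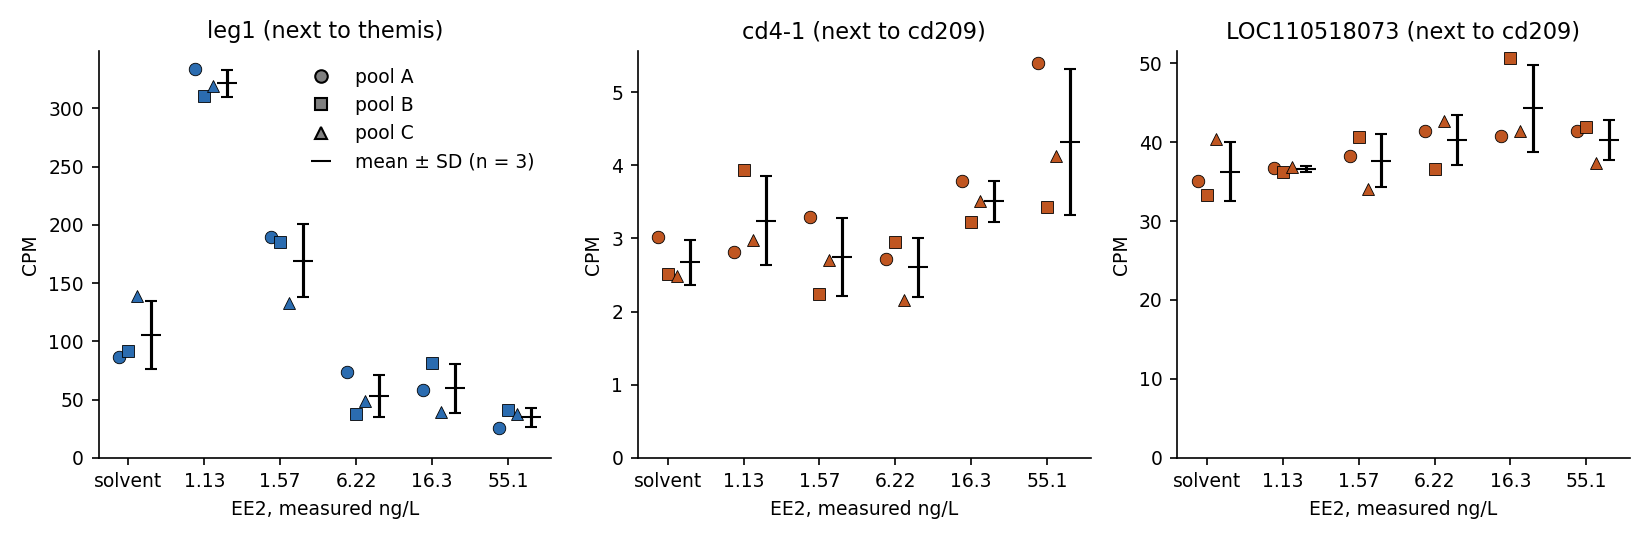
Level of the tested genes directly beside themis and cd209 in each library, in CPM, by EE2 group, with 1 symbol for each pool and the group mean ± SD beside them (n = 3). The leg1 pools lie at 311 to 334 CPM at 1.13 ng/L and at 25.5 to 41.2 CPM at 55.1 ng/L, on either side of the solvent pools at 86.5 to 139 CPM.

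To place the 2 genes among immune transcripts, 81 genes of 9 immune lists were tested at each concentration, some of them in more than 1 list. In order of rising concentration, edgeR called 1, 1, 0, 0 and 1 of them. Over all 46999 features the called shares were, in the same order, 8.06%, 4.27%, 0.0723%, 0.366% and 0.372%. The 1 gene called is 1.23% of the 81, a share below that of all features at 1.13 and 1.57 ng/L and above it at 55.1 ng/L, and each of these shares rests on 1 gene. At 1.57 ng/L the order depended on single libraries, since 501 of all features were called without replicate B of that group, beside 2006 with it. At 55.1 ng/L the order was not stable either, since the 1 call, of tcf7, held in 3 of 24 alternative fits. At an unadjusted p under 0.05, edgeR had 13, 13, 5, 11 and 13 of the 81 genes in order of concentration, which is 16%, 16%, 6.17%, 13.6% and 16%, beside 23.5%, 20.2%, 7.68%, 12.1% and 10.9% of all features. DESeq2 called 6, 5, 0, 2 and 4 of the list genes, which is 8.11%, 6.58%, 0%, 2.5% and 5% of those with an adjusted p, beside 14.8%, 10.6%, 0.728%, 2.36% and 1.79% of all features. The median log2 fold changes of the 81 were 0.11, 0.14, -0.08, 0.04 and -0.08, beside medians of all features between -0.01 and 0.005.

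The T cell list is the one closest to themis. Of its 71 planned symbols 14 matched a gene and 12 were tested, and edgeR and DESeq2 both called 0 of the 12 at the 4 lower concentrations, where edgeR had 0, 1, 1 and 0 at an unadjusted p under 0.05. At 55.1 ng/L edgeR called 1 of the 12, as lower, and had 4 at an unadjusted p under 0.05, and DESeq2 called 2. The shares of all features there were 0.372%, 10.9% and 1.79% in the same order. Of the 12 genes, 10 had fold changes below 0, with a median of -0.31 where all features had -0.01 and 51.4% of them lay below 0. The summed level of the list was 53.8 to 60.6 CPM in solvent and 46.7 to 53.4 CPM at 55.1 ng/L, without overlap. The sums of the 4 lower concentrations all overlapped the solvent range. Among them were 1.13, 6.22 and 16.3 ng/L, where the themis pools stood apart from solvent. The most abundant genes of the list, grb2a and gata3, had means of 14.66 and 14.53 CPM in solvent and 14.95 and 13.43 CPM at 55.1 ng/L. The mean of tcf7 was 8.57 CPM in solvent and 6.175 CPM at 55.1 ng/L. Genes of red blood cells also stood lower at 55.1 ng/L. The 5 tested summed to 213 to 270 CPM in solvent and 148 to 178 CPM at 55.1 ng/L. At that concentration edgeR called 0 of the 5, had 4 at an unadjusted p under 0.05, and DESeq2 called 2. Their sum was also below all solvent pools at 6.22 ng/L (158 to 211 CPM) and at 1.13 ng/L (186 to 212 CPM), where themis was highest. It overlapped solvent at 1.57 and 16.3 ng/L. The largest of these 5, tfr1a, had a mean of 132 CPM in solvent and 91.3 CPM at 55.1 ng/L. Whether cell makeup differed between the groups, and its part in the themis values, was not tested.

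The gene of the T cell list that fell was tcf7, a transcription factor of early T cells. Which cells of the whole alevins express the genes of this list was not identified here. The tcf7 transcript was at 8.24, 9.61 and 7.86 CPM in solvent and 6.94, 5.73 and 5.86 CPM at 55.1 ng/L. Every one of these exposed pools was below every solvent pool. The log2 fold change was -0.47 (SE 0.09, adjusted p = 0.0463, edgeR), and the call held in 3 of 24 alternative fits, over which the adjusted p ran from 0.0246 to 0.384. RAG1 cuts the DNA of antigen receptor genes during V(D)J recombination and marks developing lymphocytes. The rag1 transcript was at 1.72, 1.22 and 2.31 CPM in solvent, 4.65, 2.74 and 2.73 CPM in the 1.13 ng/L pools, and 0.219, 0.593 and 0.247 CPM in the 55.1 ng/L pools.

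The rag1 pools at 1.13 ng/L lay above, and those at 55.1 ng/L below, all solvent pools, the same order of these 3 groups as for themis. On the log2 scale rag1 differed from solvent by 0.94 (SE 0.60) at the first of these concentrations and by -2.27 (SE 0.67) at the other, and neither passed (adjusted p = 0.376 and 0.222, edgeR). DESeq2 called the lower level at 55.1 ng/L (-2.28, adjusted p = 0.0238), and those libraries held 3, 9 and 3 counts of the gene. Between them rag1 was at 3.67, 2.12 and 2.31 CPM in the 1.57 ng/L pools, 1.32, 0.753 and 0.0720 CPM in the 6.22 ng/L pools, and 1.12, 0.826 and 1.80 CPM in the 16.3 ng/L pools, and all 3 of these groups overlapped solvent. The co-receptor gene cd8a was near the floor, with -0.26 at 55.1 ng/L (adjusted p = 0.953, edgeR). The values of cd3e, a subunit of the T cell receptor complex, and of rag2, the partner of RAG1, were -0.47 (adjusted p = 0.504) and -0.72 (adjusted p = 0.359, edgeR) at 55.1 ng/L. These last 2 genes were named after their values were seen. The 2 genes of the T cell list above 0 at 55.1 ng/L were cd4-1 (0.69) and grb2a (0.03), neither called. At 1.13 ng/L 6 of the 12 list genes lay above 0 and 6 below, with cd3e at -0.3, cd8a at -0.51 and rag2 at -0.04.

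The macrophage and dendritic cell list is the one closest to cd209. Of 45 planned symbols 11 matched and 7 were tested, and 0 were called at any concentration by edgeR or DESeq2. Over all features edgeR called 0.0723% to 8.06% and DESeq2 0.728% to 14.8%, so 0 of 7 does not set the list apart. At an unadjusted p under 0.05 edgeR had 1 of the 7 at 1.13 ng/L, 1 at 55.1 ng/L and 0 elsewhere. The shares of all features at those 2 concentrations were 23.5% and 10.9%. At 55.1 ng/L 2 had fold changes above 0 and 5 below, with a median of -0.27. The summed level was 20.9 to 22.9 CPM in solvent and 20.0 to 22.5 CPM at 55.1 ng/L. The gene mpeg1.1, for a pore-forming protein of macrophages, was at 3.33 ± 0.549 CPM in solvent and 2.77 ± 1.2 at 55.1 ng/L (SD, n = 3 pools each, log2 fold change -0.27, adjusted p = 0.83, edgeR). For irf8, a transcription factor of macrophages and dendritic cells, the value was also -0.27 (adjusted p = 0.936, edgeR).

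Lectin genes other than cd209 formed the third list set beside it. Of 38 planned symbols, mostly of C-type lectins and collectins, 7 matched and 6 were tested. With edgeR 0 of the 6 were called at any concentration, beside 0.0723% to 8.06% of all features. At an unadjusted p under 0.05 there was 1 at 1.57 ng/L and 1 at 16.3 ng/L, beside 20.2% and 12.1% of all features. DESeq2 called 1, lman1 at 16.3 ng/L, where it called 2.36% of all features. LMAN1 is a lectin but not a C-type lectin. The median of the 6 was -0.05 at 55.1 ng/L, where 2 had fold changes above 0 and 4 below. Of the remaining 6 immune lists, antigen presentation (13 tested), interferon response (13), complement (14), B cells (3), and neutrophils and mast cells (6) had 0 called at every concentration by edgeR, with 0 to 5 of a list at an unadjusted p under 0.05 and 0 to 2 called by DESeq2. In the inflammation list (9 tested) nos2, the inducible nitric oxide synthase, had 1.49 ± 0.175 CPM in solvent and 3.20 ± 0.382 CPM at 1.13 ng/L (SD, n = 3 pools each) and rose there (1.1, adjusted p = 0.00487, edgeR). It also rose at 1.57 ng/L (0.98, adjusted p = 0.0172, edgeR), a call lost without 1.57 ng/L replicate A (0.0634) or C (0.0567) or solvent replicate A (0.0751) or B (0.0538).

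At 55.1 ng/L the summed level of the 9 inflammation genes was 32.3 to 37.7 CPM, above the 22.4 to 23.7 CPM of solvent without overlap. The sum was also above all solvent pools at 1.13 ng/L (24.4 to 29.5 CPM), 1.57 ng/L (24.0 to 29.6 CPM) and 16.3 ng/L (26.4 to 29.3 CPM). It overlapped solvent at 6.22 ng/L (21.3 to 25.5 CPM). The lectin and antigen presentation sums also stood above solvent without overlap at 1.13, 1.57 and 16.3 ng/L. At 55.1 ng/L edgeR called 0 of the 9 inflammation genes and had 5 at an unadjusted p under 0.05, in either direction. DESeq2 called lect2 and saa, both named after their values were seen. The shares of all features were 0.372% called by edgeR, 10.9% at an unadjusted p under 0.05 and 1.79% called by DESeq2. Of the 9 genes, 6 lay above 0 and 3 below, with a median of 0.34. The lect2 gene, for a secreted liver protein that attracts neutrophils, was at 3.03 ± 0.206 CPM in solvent and 9.03 ± 2.396 at 55.1 ng/L (SD, n = 3 pools each), a log2 fold change of 1.57 (SE 0.40) that did not pass with edgeR (adjusted p = 0.142). The saa gene, for the acute phase protein serum amyloid A, was at 0.608 ± 0.417 CPM in solvent and 2.22 ± 0.514 at 55.1 ng/L, a log2 fold change of 1.87 (SE 0.55) that did not pass either (adjusted p = 0.216, edgeR). DESeq2 also called saa at 1.13 ng/L, where edgeR gave 1.55 (adjusted p = 0.0943).

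**Figure D4:**
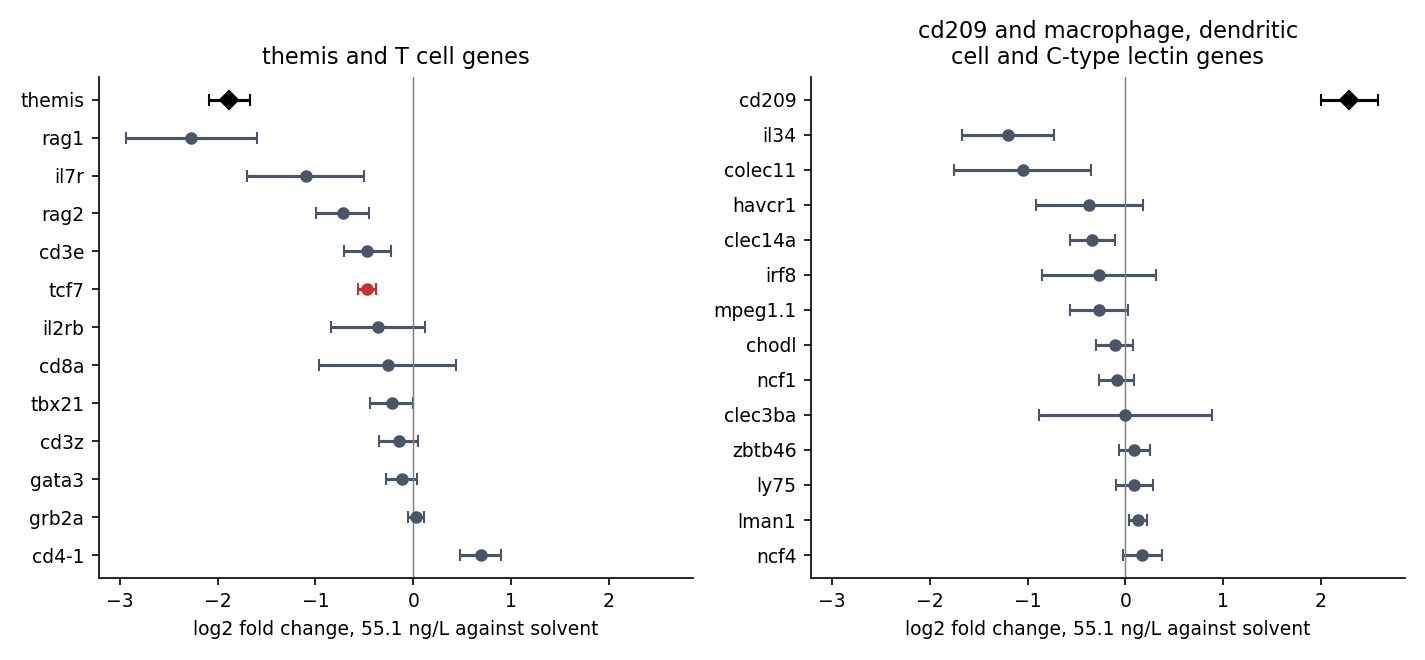
Log2 fold change at 55.1 ng/L EE2 against solvent for themis and the tested T cell genes, and for cd209 and the tested macrophage, dendritic cell and lectin genes. Points are log2 fold changes, bars are ± SE, and tcf7, the gene that edgeR called, is in red. The 12 T cell genes have a median of -0.31 and the 7 macrophage and dendritic cell genes one of -0.27. Both members were chosen for their courses, and themis stands at -1.88 and cd209 at 2.29. The T cell genes run from rag1, which lies below themis at -2.27, to cd4-1 at 0.69, and edgeR called neither of these.

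The transcripts whose course over the 18 libraries was most like each gene were then listed, by Pearson's r of log2 CPM among 37911 features with a mean of at least 1 CPM. The 18 points fall into 6 exposure groups and share the library depths, so r is a description of the course. Most like themis were XR_002472325.1 (r = 0.954), XM_021603015.1 (0.939), LOC110532286 (0.933), LOC110500625 (0.93) and XM_021611529.1 (0.91), to which the RefSeq table gives no descriptive symbol. XR_002472325.1 had a mean of 141 CPM in solvent, 321 CPM in the 1.13 ng/L group and 24.0 CPM in the 55.1 ng/L group, so it too was highest at the lowest concentration. Most opposite to themis were XM_021564920.1 (-0.96), XM_021589013.1 (-0.937), XM_021594768.1 (-0.93), LOC110530802 (-0.92) and XM_021621677.1 (-0.911).

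Most like cd209 were mcfd2 (r = 0.967), cnpy1 (0.966), XM_021586735.1 (0.952), si:ch1073-126c3.2 (0.945) and LOC110535409 (0.939). MCFD2 acts with the lectin LMAN1 as a receptor that carries glycoproteins from the endoplasmic reticulum to the Golgi. The mcfd2 mean was 13.5 CPM in solvent, 23.2 CPM in the 6.22 ng/L group and 43.4 CPM in the 16.3 ng/L group, and 45.2 CPM at the highest concentration. Its partner lman1, named after its values were seen, was at 28.4 CPM in solvent and 31.1 CPM at 55.1 ng/L (log2 fold change 0.13, adjusted p = 0.623, edgeR). At 16.3 ng/L lman1 was at 35.6 CPM (0.33, adjusted p = 0.142, edgeR), which DESeq2 called, and at 1.57 ng/L it had 0.26 (adjusted p = 0.0948, edgeR). CNPY1 belongs to the canopy family of endoplasmic reticulum proteins, and the cnpy1 mean was 3.25 CPM in solvent and 9.67 and 10.8 CPM at the 2 highest concentrations.

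Most opposite to cd209 were sass6 (r = -0.895), whose protein builds centrioles, LOC110533997 (-0.872), themis itself (-0.87), XM_021611529.1 (-0.852) and plcd4a (-0.846), a phospholipase C. One feature, XM_021611529.1, was therefore named for both genes, as one most like themis and as one most opposite to cd209. The pair was chosen for opposite courses in these same libraries. The place of themis in this list and the shared feature are therefore not independent observations. Its mean was 61.0 CPM in solvent, 73.3 CPM in the 1.13 ng/L group and 17.7 CPM in the 55.1 ng/L group.

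**Figure D5:**
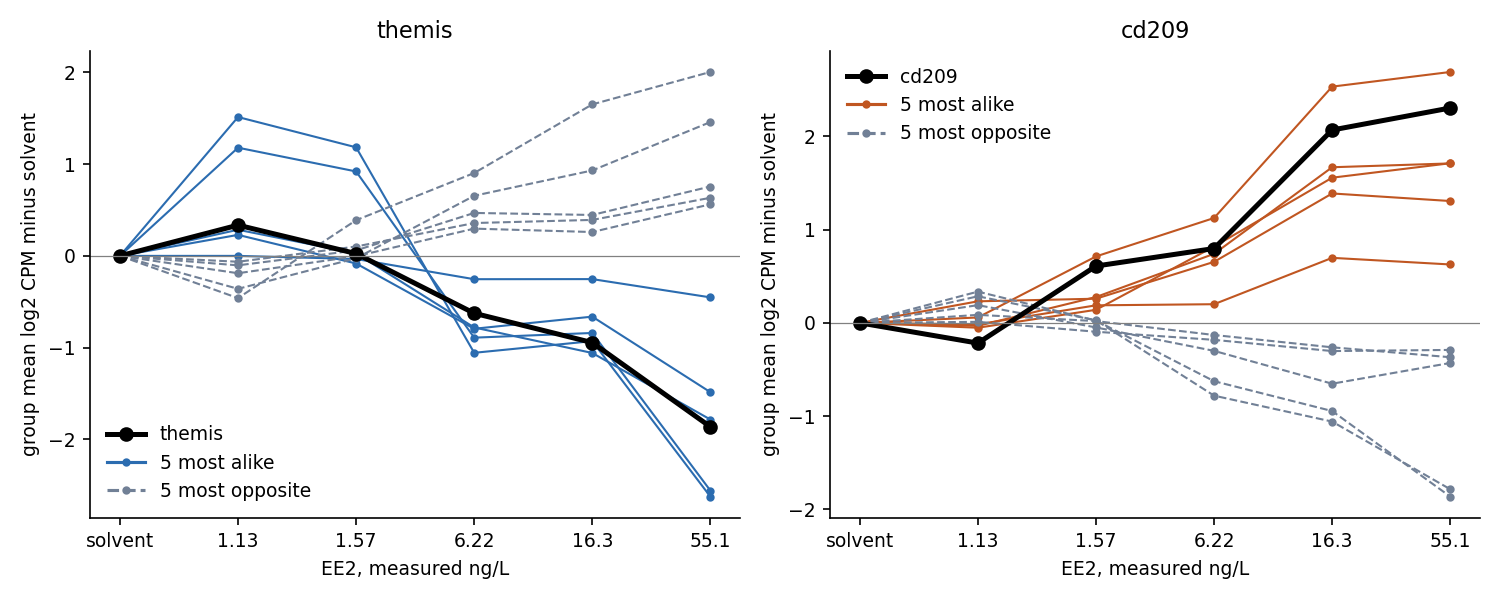
Group mean log2 CPM minus that of solvent, by EE2 group, for themis and cd209 (black), the 5 features most like each (solid) and the 5 most opposite (dashed). The cd209 companions mcfd2 and cnpy1 stay near their solvent level at 1.13 ng/L and reach 45.2 and 10.8 CPM at 55.1 ng/L.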

How the data were processed

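Poly(A) RNA of 18 pools of whole alevins was sequenced. Reads were trimmed with Trimmomatic 0.38 and quantified with kallisto, and comparisons made with DESeq2, per the submitters' processing notes. The genome build is not given in the sources used here. The deposited files hold estimated counts, TPM and lengths per transcript, per the file headers. The authors' deposited comparison tables hold a mean normalised count (a signal), log2 fold changes and adjusted p-values. Of 79244 transcripts, 42410 matched the RefSeq table of USDA_OmykA_1.1 by accession without version. Estimated counts were summed by gene (25139 genes, plus 36834 unmatched single transcripts) and rounded. A quasi-likelihood model (edgeR 4.0.16 in R 4.3.3, F test) was fitted with TMM scaling and filterByExpr to all 18 libraries, with 12 residual degrees of freedom, Benjamini-Hochberg adjustment over 46999 features and a threshold of 0.05. It was tested on simulated data. The SE is the log2 fold change over the square root of F. CPM uses TMM factors, and log2 CPM has a prior count of 2. Alternatives used DESeq2 1.42.0, other scaling, filters, TPM and left-out libraries. The 2 genes and the 13 gene lists were chosen with earlier results of these data known. Named genes are both members, their neighbours, list genes past the threshold, up to 3 defining genes for T cells and for macrophages, and the 5 features most like and most opposite to each member. A comparison with sequence relatives was replaced by chromosome neighbours after the files were seen, since no protein sequences were used here. One concentration that the series' design text names beyond 55.1 ng/L was not analysed here.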

Additional observations from a re-analysis of the deposited data

How the results depend on the processing

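The fold changes of both members moved by less than the spread between pools under other scaling, filters, TPM and DESeq2, and were 0.28 to 0.41, -0.01 to 0.06, -0.83 to -0.38, -1.10 to -0.79 and -1.95 to -1.76 for themis with 1 library left out, in order of concentration. Those of cd209 were -0.60 to 0.09 at 1.13 ng/L, and 0.44 to 0.83, 0.56 to 1.05, 1.90 to 2.29 and 2.13 to 2.55 above it. At 1.13 ng/L the sign of cd209 was not stable, with 0.05 from TPM. The number of features called in the main test was 3787, 2006, 34, 172 and 175. DESeq2 called 6397, 4658, 334, 1064 and 807, the cause was not tested, and the solvent and 55.1 ng/L libraries alone gave 59 at 55.1 ng/L, with fewer samples. With 1 library left out the counts were 1350 to 3892, 326 to 2481, 27 to 44, 97 to 301 and 87 to 188. Without solvent A they were 1437 at 1.13, 326 at 1.57, 97 at 16.3 and 87 at 55.1 ng/L, and without solvent B 1528, 361, 102 and 90. At 16.3 ng/L the count was 301 without solvent C and 108 without 16.3 ng/L B. At 1.13 ng/L it was 1867 without replicate A and 1350 without B of that group, at 1.57 ng/L 661, 501 and 1287 without A, B and C, and at 55.1 ng/L 103 without B. Immune list genes called numbered 6, 5, 2 and 4 with DESeq2 at 1.13, 1.57, 16.3 and 55.1 ng/L, and at 55.1 ng/L 0 with RLE factors, with the length trend removed, with no filter, and with only the solvent and 55.1 ng/L libraries. With 1 library left out they numbered 1 to 4, 0 to 2, 0 to 0, 0 to 1 and 0 to 1. The uncalled cd4-1 changed sign at 1.57 ng/L (-0.11 without 1.57 ng/L A, -0.01 without solvent B, -0.02 without solvent C; range -0.11 to 0.16) and at 6.22 ng/L (0.08 without 6.22 ng/L C, 0.07 without solvent A; range -0.13 to 0.08).

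Replicate letters did not pair the pools: deviations of same-letter pools correlated at -0.042 to 0.045. With the letter as a replicate block, 3403, 1646, 25, 134 and 132 features were called, 0 immune list genes at 55.1 ng/L, and 3 calls at 55.1 ng/L were lost: leg1 (-1.61, adjusted p = 0.0712), tcf7 (-0.47, adjusted p = 0.0583) and rbp4 (1.04, adjusted p = 0.0527). The alternative with sequence relatives was not run. Low counts limit what can be read from rag1, with 3 to 9 counts in the 55.1 ng/L libraries.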

Other observations

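The remaining genes of the estrogen and intestine lists gave these values. Of 4 estrogen response genes, edgeR called 2, 3, 4, 4 and 4 as higher in order of rising concentration. Over all features the shares called in either direction were 8.06%, 4.27%, 0.0723%, 0.366% and 0.372%. Both lists were chosen with earlier results of these data known, so their counts are a description. The egg envelope gene zp2.3 rose at 1.13 ng/L, from a mean of 0.0436 CPM in solvent to 1.40 CPM (adjusted p = 0.0123, edgeR), a call lost without solvent A or B (adjusted p up to 0.0624), and the vitellogenin gene vtg3 rose from 1.57 ng/L upward (0.0468 CPM in solvent and 0.970 CPM there, adjusted p = 0.0114, edgeR), a call at 1.57 ng/L lost without solvent A (0.0572) or B (0.0522). The gene miox, for an enzyme that breaks down inositol, rose from 6.22 ng/L upward (log2 fold change 2.13 there, adjusted p = 0.00872, edgeR), a call at that concentration lost without solvent A or B (adjusted p up to 0.0854). Of 5 intestine genes, agr2, which assists the folding of mucins, rose at 1.13 ng/L (0.47, adjusted p = 0.03) and 1.57 ng/L (0.50, adjusted p = 0.0372, edgeR). The first call was lost without 1.13 ng/L B or solvent A or B (adjusted p up to 0.154), and the second without 1.57 ng/L A or B or any single solvent library (adjusted p up to 0.161). The other 4 intestine genes lay below 0 at both concentrations, and the list medians were -0.58 and -0.39. At 1.13 ng/L DESeq2 called fabp2 (-0.86 in edgeR) and vil1 (-0.58 in edgeR) besides agr2, where it called 14.8% of all features.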
